A study of Mus musculus with 175 samples.

Results

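The 7 genes examined write or erase DNA methylation: the maintenance methyltransferase Dnmt1 and its partner Uhrf1, the de novo methyltransferases Dnmt3a and Dnmt3b, and the dioxygenases Tet1, Tet2 and Tet3. They were taken by symbol from the deposited gene table, and each of the 7 symbols matched 1 of the 49585 mouse features counted. All 7 had reads, and all 7 passed the filter on low counts that left 8741 genes for comparison (a mean count of at least 1 and a read in at least 25% of the cells). Tet1 passed narrowly, with a read in 48 of 172 cells (27.9%), most of them common myeloid progenitors (CMPs), so it entered the comparisons through the populations in which it was high.

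Methyl groups on cytosine in CpG pairs are copied at each round of DNA replication. UHRF1 recognises the hemimethylated DNA that replication leaves behind and recruits DNMT1, which methylates the daughter strand. DNMT3A and DNMT3B place methyl groups on DNA that carried none, and the TET enzymes oxidise methylcytosine to hydroxymethylcytosine and further products, which are lost by dilution at replication or removed by the glycosylase TDG and base excision repair. In blood formation, loss of DNMT3A or TET2 is known to favour self-renewal of stem cells, mutations of both genes are frequent in human myeloid disease, and erythroid maturation is accompanied by a broad loss of DNA methylation.

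The cells were single hematopoietic progenitors from livers of E14.5 embryos (14.5 days post fertilization) of C57BL/6 mice crossed with ICR. Every embryo carried the reporter alleles. The sorting protocol names them Runx1 P1-GFP::P2-hCD4/+, whereas the genotype field of the labels reads Runx1 P2-GFP::P2-hCD4/+. Human CD4 (hCD4) on the cell surface reports the proximal promoter (P2) of Runx1. Megakaryocyte-erythroid progenitors (MEPs) were sorted as Lin- Sca1- cKit+ CD16/32low CD34- cells, CMPs by the same gate but CD34+, and each was divided into P2- and P2+ fractions. The study's text describes both as cells with CD150 and without surface CD41. The labels call the CMP fractions low and high, which were read here as P2- and P2+. There was no treatment, and the livers of 2 litters were pooled before sorting. Each population is therefore 1 sample, its cells are not replicates, and no p-value was computed. Intervals cover counting error only, and counts without molecular identifiers include PCR copies.

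After filters on cells 172 of 175 were kept. Of the MEPs 56 were P2- and 47 P2+, and of the CMPs 27 were P2- and 42 P2+. Where 4 values follow each other below, they stand in this order (P2- before P2+, MEPs before CMPs). Reads on mouse genes per cell ranged from 295064 to 1540631, with medians of 520540, 624148, 637603 and 804632. Lineage genes differed between the sorted compartments. Klf1, an erythroid transcription factor, was at 478, 243.5, 87.4 and 4.59 counts per 1000000 mouse reads (CPM). Mpo, a myeloid granule enzyme, was at 2.22, 12.7, 216.5 and 431 CPM. The myeloid list of 7 genes summed to 302.5, 316.6, 990.4 and 1404.9 CPM, and Cd34, Spi1 and Flt3 went with Mpo. Kit, also on the erythroid list, was highest in P2- CMPs at 369.4 CPM but lowest in P2+ CMPs. Cebpa (0.392, 0.665, 1.47 and 0.330 CPM) was also lowest in P2+ CMPs, and Elane reached at most 0.633 CPM. The erythroid list of 6 genes summed to 1336, 1225, 702 and 399.6 CPM, and between the MEP fractions its members went both ways, with Car1 at 110.6 and 299.7 CPM and Slamf1 at 8.23 and 97.2. In 1 P2- CMP the subtype label says MEP, and 2 wells (1 P2- MEP and 1 P2+ MEP) held reads of both Xist and Y-linked genes. Of 6 macrophage markers Adgre1, C1qa and C1qb had no read in any population, and the sum of the list was 1.18, 10.1, 6.87 and 8.01 CPM, mostly Cd68 (1.18, 8.74, 6.16 and 5.89). Libraries differed in spike-in RNA, with 63.1, 41.1, 44.2 and 55.5 mouse reads per ERCC read, so every ratio below is relative to the mouse reads of the population. With ERCC reads as the denominator the median log2 ratio of all tested genes moved from 0.01 to -0.60 between P2+ and P2- MEPs, from -0.03 to 0.30 between P2+ and P2- CMPs, from -0.005 to -0.52 between CMPs and MEPs of the P2- fraction and from -0.06 to 0.38 between those of the P2+ fraction. In a population's pooled reads, fewer cells expressing a gene and less RNA per cell cannot be told apart, and shares of cells are therefore given beside the pooled levels.

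The genes lie on 7 chromosomes of the mouse genome build GRCm38. Dnmt1 is on the minus strand at chr9:20907209-20959888 and Uhrf1 on the plus strand at chr17:56303321-56323486. Dnmt3a (chr12:3806007-3914443) and Dnmt3b (chr2:153649450-153687730) are on the plus strand, and Tet1 (chr10:62804570-62908996), Tet2 (chr3:133463679-133545139) and Tet3 (chr6:83362373-83459084) on the minus strand. The counts are over merged exons, which span 7377 bases in Dnmt1, 4259 in Uhrf1, 16642 in Dnmt3a, 5106 in Dnmt3b, 15457 in Tet1, 16870 in Tet2 and 16695 in Tet3. Reads were counted without strand. Of the exon bases of Dnmt3a, 0.799% overlap the antisense gene Dnmt3aos, which had no read of its own, and 0.255% of those of Tet2 overlap Gm42567. A close relative of Dnmt3b annotated as Dnmt3c-ps had 65 reads in 7 P2- MEPs, 14 in 1 P2+ MEP, 0 in P2- CMPs and 1 in a P2+ CMP, against 2057 to 11427 reads of Dnmt3b. Reads that fit both copies cannot be told apart, and their number was not examined. Dnmt3l, the inactive cofactor of the de novo enzymes, had no read in any cell.

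Promoter windows of 300 bases (250 before and 50 after each annotated start, RefSeq, GRCm38.p6) were available for all 7 genes, 12 windows in all. Stretches of 60 bases are shown because the pair of maintenance genes, and no other of the 7, had a match to an E2F-type word, the class of site bound by the factors that switch on S-phase genes. The word in capitals is the match, read 5′ to 3′ on the strand of the gene.
Dnmt1, chr9:20952809-20952868, minus strand: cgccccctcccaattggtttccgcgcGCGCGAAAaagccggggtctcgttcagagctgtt
Uhrf1, chr17:56304102-56304161, plus strand: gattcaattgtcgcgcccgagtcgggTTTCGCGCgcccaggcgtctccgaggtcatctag
The words searched on both strands were TTTCCCGC, TTTCGCGC, TTTGCCGC and TTTGGCGC. They occurred in 2 of the 12 windows, and in 744 of all 32851 mouse windows (2.26%). Each of these words contains a CpG pair, and both matching windows held 33 CpG pairs, against a median of 7 over all windows. The share over all windows is therefore not that of windows alike in CpG content, which was not computed. In Dnmt1 the word shown is on the opposite strand, and the same window holds a second word of the set, TTTGGCGC, after the start site on the strand of the gene. In Uhrf1 the word lies 185 to 178 bases before the start site on the strand of the gene. The RUNX word TGTGGT was found in 1 window, of Uhrf1 (16.8% of all windows hold it), and a GATA word (the word AGATAA, the word AGATAG, the word TGATAA or the word TGATAG) in 1 window, of Dnmt1 (29.8% of all windows). A match is a description of the letters, and its absence says only that these letters are not in the window. CpG pairs were frequent in at least 1 window of each gene, with 57 in that of Tet2, up to 47 in Dnmt3a, 33 in Dnmt1 and in Uhrf1, 30 in Dnmt3b, 22 in Tet3 and 17 in Tet1, against a median of 7 over all windows.

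The maintenance pair was read in nearly every cell and differed little between populations. Dnmt1 stood at 265.3, 338.4, 313.2 and 315.3 CPM, with 95% Poisson intervals of 259.6 to 271.2, 331.996 to 344.9, 305.2 to 321.4 and 309.6 to 321.2. The CMP populations overlapped within counting error, and the P2+ MEPs, the highest, were 1.28-fold above the P2- MEPs, the lowest. Over single cells Dnmt1 ran from 19.9 to 577, from 44.9 to 729, from 63.6 to 669 and from 20.9 to 800 CPM, and the cell medians were 253.2, 301.5, 272.2 and 294.7 CPM. The quartiles of the cells (186 to 326.8, 228.5 to 442, 168 to 445 and 187 to 444 CPM) overlapped between all populations, so no population stood apart beyond the spread of its cells. Every one of the 172 cells had a Dnmt1 read after thinning to 100000 reads.

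Uhrf1 followed with 256.5, 319.4, 233.98 and 269.3 CPM (intervals 250.8 to 262.2, 313.2 to 325.7, 227.03 to 241.1 and 263.98 to 274.7). As for Dnmt1, P2+ MEPs were highest. P2- CMPs were lowest, and the whole span was 1.36-fold. Single cells ran from 26.2 to 648, from 22.4 to 748, from 0 to 564 and from 0 to 642 CPM, with medians of 224.4, 280, 194 and 233.4 CPM. Here, too, the quartiles overlapped in all pairs of populations, and 55 of 56, 47 of 47, 26 of 27 and 40 of 42 cells had a read at equal depth.

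The de novo enzymes were lowest in P2- MEPs, intermediate in P2+ MEPs and highest in CMPs. Dnmt3a stood at 32.97, 66.0, 157 and 169 CPM (intervals 30.96 to 35.1, 63.2 to 68.9, 152 to 163 and 165 to 173), a span of 5.12-fold, on 1009 reads in the lowest population. The level of the P2- CMPs leaned on 1 cell at 1067 CPM, which held 844 of their 2883 reads (29.3%), and without it they were at 116 CPM. Cell medians, which do not depend on that cell's size, kept the same order, at 28.4, 62.3, 98.0 and 140 CPM. Cells reached 131, 211.6, 1067 and 416 CPM from lowest levels of 0, 0, 0 and 17.6. The quartiles of P2- MEPs (4.46 to 52.6 CPM) lay below those of P2- CMPs (56.5 to 165) and P2+ CMPs (100 to 220), while those of P2+ MEPs (14.9 to 107) overlapped with all the others. The share of cells with a read at equal depth was 71.4% (40 of 56), 78.7% (37 of 47), 92.6% (25 of 27) and 100% (42 of 42).

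Dnmt3b, the other de novo enzyme, stood at 67.2, 150, 331.8 and 314.4 CPM (intervals 64.3 to 70.2, 146 to 154, 323.5 to 340 and 308.6 to 320), with 2057 reads in the lowest population. The step from P2- to P2+ was seen in MEPs, and the CMP fractions lay within 1.06-fold of each other. Cells ran from 0 to 260, from 0 to 528, from 29.8 to 1163 and from 64.4 to 711 CPM, with medians of 56.6, 129, 292.9 and 273.7 CPM. The quartiles of P2- MEPs (29.2 to 87.9 CPM) lay below those of both CMP populations (146 to 444 and 168 to 450), and those of P2+ MEPs (80.2 to 233.7) overlapped with all. At equal depth 47 of 56 P2- MEPs, 43 of 47 P2+ MEPs and every CMP had a read. Both de novo genes were read together in 33 of 56, 35 of 47, 25 of 27 and 42 of 42 cells, and neither in 2, 2, 0 and 0.

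**Figure D1:**
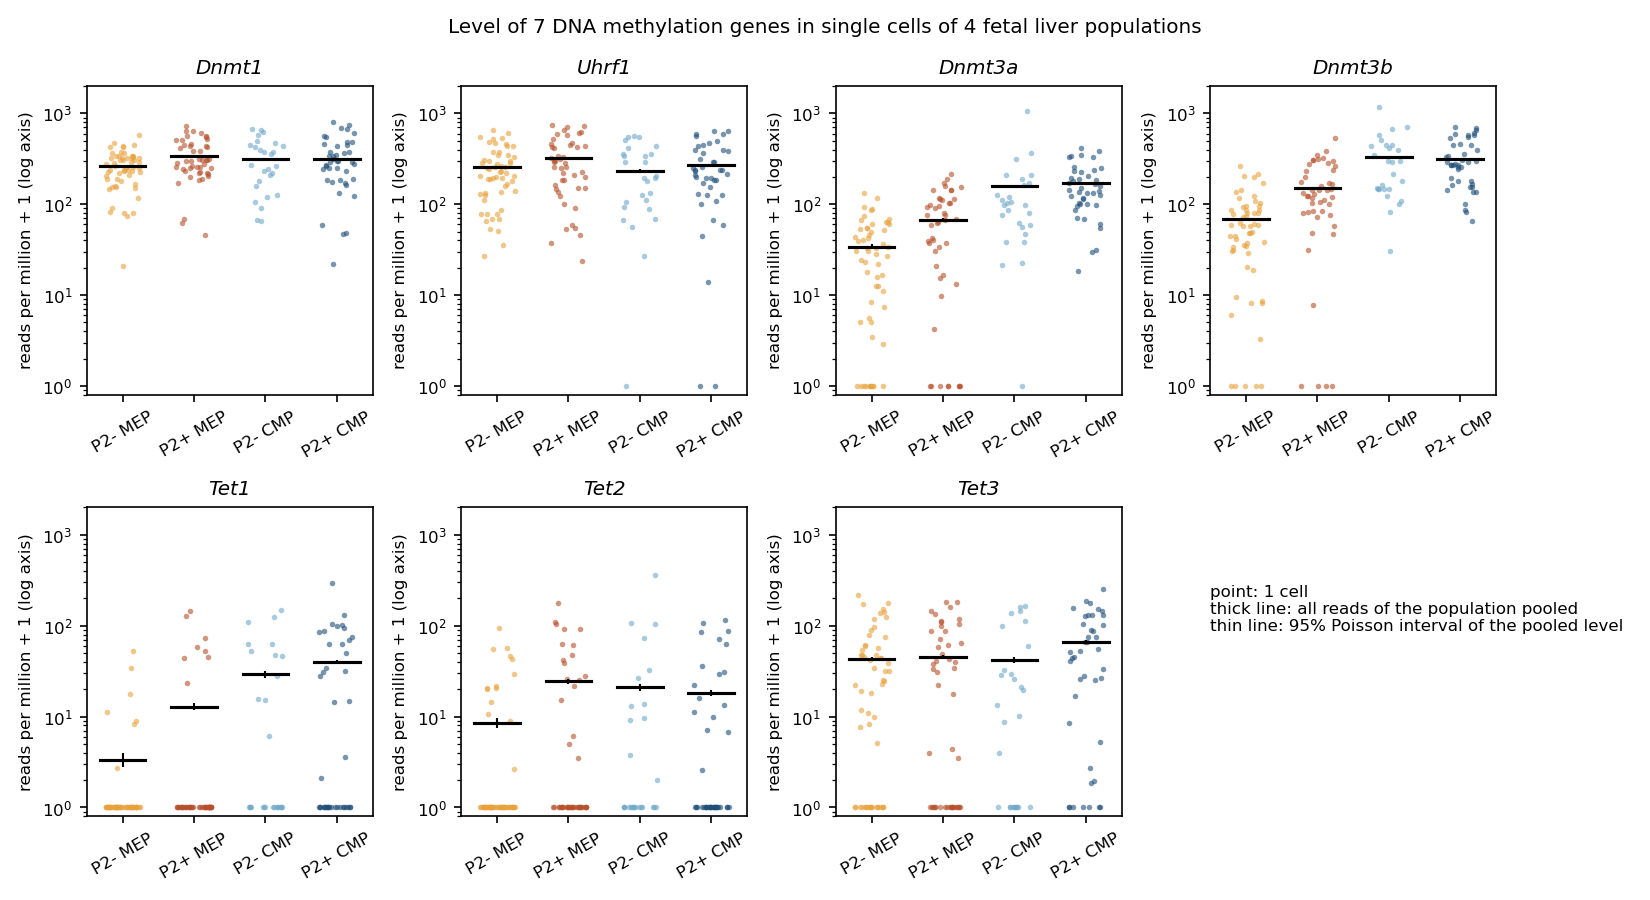
Level of each gene in single cells (points) of the 4 populations, as mouse reads scaled to CPM plus 1 on a log axis, with the pooled level of each population (thick line) and its 95% Poisson interval (thin line). Dnmt1 and Uhrf1 lie at similar heights in every population, Dnmt3a and Dnmt3b are lowest in P2- MEPs (32.97 and 67.2 CPM), and many cells lie on the baseline, without a read, for Tet1 and Tet2.

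Of the TET enzymes, Tet1 was read in the fewest cells (48 of 172) and had the widest span. It stood at 2.32, 11.9, 28.3 and 38.6 CPM (intervals 1.81 to 2.93, 10.7 to 13.2, 25.9 to 30.8 and 36.6 to 40.7), with 71 reads in the lowest population and 1404 in the highest. The order was that of Dnmt3a, and the highest population was 16.6-fold above the lowest. Few cells carried these reads. At equal depth a Tet1 read was found in 4 of 56, 8 of 47, 10 of 27 and 17 of 42 cells, which are 7.14% (95% Clopper-Pearson interval 1.98 to 17.3%), 17.02% (7.65 to 30.8%), 37.04% (19.4 to 57.6%) and 40.5% (25.6 to 56.7%). The shares of P2- MEPs and either CMP population did not overlap in their intervals, and the intervals of neighbours in the order did. The cell of highest level held 35.2% of the reads of the P2- MEPs, which without it were at 1.53 CPM, and 38.8% of the reads of the P2+ MEPs lay in 1 cell. Cells reached 51.8, 146, 147 and 292.8 CPM, with medians of 0, 0, 0 and 0.552.

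Tet2, the TET enzyme most often mutated in blood disease, had another order. It was lowest in P2- MEPs at 7.51 CPM (230 reads, 6.57 to 8.55), then came P2+ CMPs at 17.4 (16.03 to 18.8), P2- CMPs at 19.9 (17.9 to 22.1) and P2+ MEPs at 23.4 (21.7 to 25.2). The last 3 lay close together. The P2- CMP level rested on 1 cell at 356.6 CPM, which held 37.8% of the reads, and without it the P2- CMPs were at 12.6 CPM, below the P2+ CMPs. Cells ran from 0 to 93.3, 176, 356.6 and 115 CPM, with a median of 0 in each population. A read was found in 21.4% (12 cells), 31.9% (15), 40.7% (11) and 33.3% (14), with intervals that overlapped in every pair. With at least 3 reads asked for, the shares were 12.5%, 25.5%, 18.5% and 19.05%, so P2+ MEPs were then highest.

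Tet3 was read in most cells of every population. It stood at 42.2, 44.6, 40.9 and 65.2 CPM (intervals 39.97 to 44.6, 42.3 to 47.02, 37.98 to 43.9 and 62.6 to 67.8). The first 3 overlapped within counting error, and P2+ CMPs were 1.595-fold above the P2- CMPs. Cells ran from 0 to 216.9, 184, 164 and 254.8 CPM, with medians of 23.99, 29.6, 12.5 and 47.3 CPM. At equal depth a read was found in 66.1% (37 cells), 57.4% (27), 59.3% (16) and 76.2% (32), and these intervals overlapped in every pair. No TET gene at all was read in 14 of 56 (25%), 11 of 47 (23.4%), 5 of 27 (18.5%) and 3 of 42 cells (7.14%), and all 3 were read together in 0, 2, 3 and 4 cells. Without thinning the cells with no TET read numbered 10, 9, 4 and 0.

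**Figure D2:**
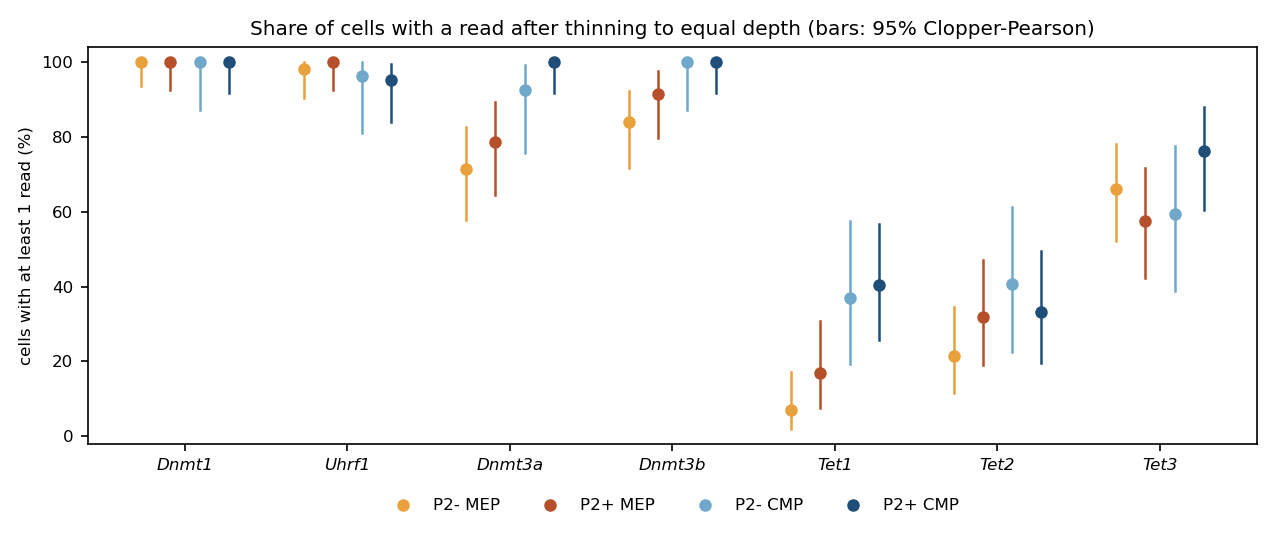
Share of cells with at least 1 read of each gene after thinning every cell to 100000 mouse reads, in percent, with 95% Clopper-Pearson intervals, for the 4 populations. Dnmt1 was read in all cells, and the share with a Tet1 read goes from 7.14% in P2- MEPs to 40.5% in P2+ CMPs.

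Levels of different genes were compared per kilobase of merged exon. On that scale Uhrf1 was above Dnmt1 in each population (60.2 against 35.97 CPM per kb in P2- MEPs), and Dnmt3b was 6.07 to 7.39 times Dnmt3a. The relation of Dnmt3b to Dnmt1 turned between compartments: Dnmt3b was at 0.366 and 0.639 of Dnmt1 in the MEP fractions but at 1.53 and 1.44 in those of the CMPs. Of the summed level of the 3 methyltransferases, Dnmt1 made up 70.4%, 57.9%, 36.3% and 37.3%, while Dnmt3b made up 25.8%, 37.1%, 55.6% and 53.8%. The summed level itself was 51.1, 79.2, 117 and 114 CPM per kb, and the part contributed by Dnmt1 was 35.97, 45.9, 42.5 and 42.7. Tet3 made up 80.9%, 55.3%, 44.9% and 52.5% of the summed TET level, with Tet1 at 4.80%, 15.9%, 33.5% and 33.6%. The summed TET level was low beside that of the methyltransferases, at 3.13, 4.83, 5.45 and 7.43 CPM per kb. Merged exons lengthen genes with many transcripts. With the length of the transcript of longest coding sequence (5367 bases in Dnmt1, 9685 in Dnmt3a, 4318 in Dnmt3b, 14369 in Tet1, 9021 in Tet2, 5944 in Tet3), a choice made after the values were seen, Dnmt3b stood at 0.315, 0.550, 1.32 and 1.24 of Dnmt1 and at 4.17 to 5.09 times Dnmt3a, and Tet3 made up 87.7%, 68.7%, 62.2% and 70.4% of the TET sum. The share of Tet1 was then 1.99%, 7.58%, 17.8% and 17.3%.

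**Figure D3:**
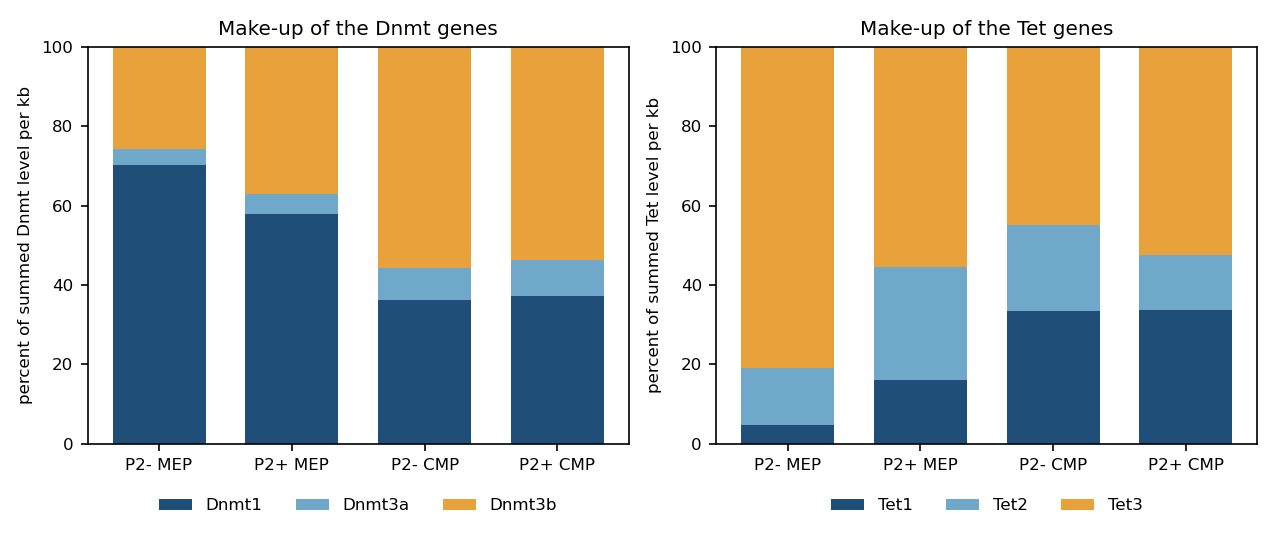
Make-up of the summed level (CPM per kb of merged exon, in percent) of the methyltransferases (left) and of the TET genes (right) in the 4 populations. Dnmt1 takes 70.4% of the methyltransferase sum in P2- MEPs and 36.3% in P2- CMPs, and Tet3 takes 80.9% of the TET sum in P2- MEPs and 44.9% in P2- CMPs.

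The 4 populations give 4 comparisons, which share populations, so the values of each gene are set side by side and no agreement between comparisons is counted. A gene was called at a 2-fold difference of pooled CPM (an absolute log2 ratio of at least 1). In MEPs, which addresses whether cells with an active P2 promoter differ, 4 of the 7 genes were at least 2-fold higher in P2+ than in P2- cells: Tet1 by 2.36 log2 units (1.99 to 2.75), Tet2 by 1.64 (1.42 to 1.86), Dnmt3b by 1.16 (1.08 to 1.23) and Dnmt3a by 1.002 (0.89 to 1.11). None was 2-fold lower. Of all 8741 genes 7.52% were 2-fold higher and 2.68% 2-fold lower, and the median log2 ratio was 1.002 over the 7 genes and 0.01 over all genes. Dnmt3a lay at the threshold itself: it was 0.94 without the P2+ MEP of highest Dnmt3a level and 0.97 without the wells with both Xist and Y reads. Dnmt1 (0.35, 0.31 to 0.39) and Uhrf1 (0.32, 0.27 to 0.36) were slightly higher in P2+ MEPs, and Tet3 was at 0.08 (-0.03 to 0.19). Relative to ERCC reads these 3 were at -0.27, -0.30 and -0.54, Dnmt3b at 0.54 and Dnmt3a at 0.39 were no longer past 2-fold, and Tet1 (1.74) and Tet2 (1.02) still were. Tet1 in P2- MEPs rests on 71 reads, and its ratio was 2.96 without the P2- MEP of highest level, a move of 1.52-fold. Megakaryocytic markers moved with this comparison: Itga2b, Gp9, Pf4 and Vwf were all read in P2+ MEPs, with a summed level of 176 CPM (0 to 1064 over cells), against 2 of the 4 and 33.7 CPM (0 to 223.6) in P2- MEPs, where Gp9 and Pf4 were at 0. In the CMP fractions the same sum was 85.6 and 87.3 CPM. Their part in the result was not tested.

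In CMPs the same split gave no gene past 2-fold among the 7, with 3.43% of all genes higher and 4.48% lower. The largest value was that of Tet3 at 0.67 (0.55 to 0.79), followed by Tet1 at 0.45 (0.30 to 0.60). Uhrf1 was at 0.20 (0.15 to 0.25), Dnmt3a at 0.10 (0.04 to 0.17), Dnmt1 at 0.01 (-0.04 to 0.06), Dnmt3b at -0.078 (-0.12 to -0.03) and Tet2 at -0.20 (-0.39 to -0.01). The median was 0.10 over the 7 genes and -0.03 over all genes. Single cells weighed on these small values: Dnmt3a was at 0.54 and Tet2 at 0.46 without the P2- CMP of highest level of each, and Tet1 at 0.12 without the P2+ CMP of highest level. Relative to ERCC reads Tet3 was at 1.004, just past 2-fold, and Dnmt3b (0.25) and Tet2 (0.13) had the other sign.

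Between compartments of the P2- fraction, 4 of 7 genes were at least 2-fold higher in CMPs: Tet1 by 3.61 log2 units (3.25 to 3.99), Dnmt3b by 2.30 (2.23 to 2.38), Dnmt3a by 2.25 (2.15 to 2.36) and Tet2 by 1.41 (1.16 to 1.65). In fold these are 12.2, 4.94, 4.77 and 2.65. None was 2-fold lower, and of all genes 12.3% were higher and 6.68% lower, with a median of 1.41 over the 7 genes and -0.005 over all. Tet2 dropped to 0.75 without the P2- CMP at 356.6 CPM, a move of 1.57-fold, whereas Dnmt3a kept a value of 1.82 without its highest P2- CMP and Tet1 one of 3.33. Without the highest P2- MEP the Tet1 value was 4.21, a move of 1.52-fold. Dnmt1 at 0.24 (0.19 to 0.29), Uhrf1 at -0.13 (-0.19 to -0.08) and Tet3 at -0.05 (-0.18 to 0.08) did not reach 2-fold. Relative to ERCC reads these were at -0.27, -0.65 and -0.56, and Tet2, at 0.89, was no longer past 2-fold.

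Between compartments of the P2+ fraction, 3 of 7 genes were at least 2-fold higher in CMPs: Tet1 by 1.70 (1.53 to 1.87), Dnmt3a by 1.35 (1.28 to 1.43) and Dnmt3b by 1.07 (1.02 to 1.12). Again none was 2-fold lower. Of all genes 8.05% were higher and 7.38% lower, and the median was 0.55 over the 7 genes and -0.06 over all. Tet3 was at 0.55 (0.45 to 0.64), Dnmt1 at -0.10 (-0.14 to -0.06), Uhrf1 at -0.25 (-0.29 to -0.21) and Tet2 at -0.43 (-0.59 to -0.28). With ERCC reads as the denominator the last 3 had the other sign or were at 0 (0.33, 0.19 and 0.00), and with DESeq2 size factors Dnmt3b was at 0.95. In both CMP populations the summed level of 6 markers of endothelium, which early progenitors in part share, was higher than in MEPs, at 90.1 and 82.1 CPM (0 to 369.1 and 0 to 281.2 over cells) against 4.84 and 24.3 CPM (0 to 42.1 and 0 to 121). Of these genes 4 were read in P2- CMPs and 5 in P2+ CMPs. Tie1, at 0.0327, 5.51, 70.4 and 63.3 CPM, made up most of the sum in CMPs. Pecam1 stood at 4.70, 17.4, 17.9 and 14.9 CPM, lower in P2+ CMPs than in P2+ MEPs. The defining marker Cdh5 was at 0.491 and 0.743 CPM and Lyve1 at 0. Mast cell Cpa3 was at 72.7 CPM in P2- CMPs and 34.2 in P2+ CMPs, with Ms4a2, Fcer1a and Prss34 at 0. The 6 hepatocyte markers summed to 11.04, 13.7, 38.2 and 27.5 CPM, with Hnf4a at 0.457, 3.42, 13.6 and 14.4, Alb at 4.48, 0, 12.7 and 0 and Serpina1a without a read. The part of these cells or transcripts in the result was not tested.

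**Figure D4:**
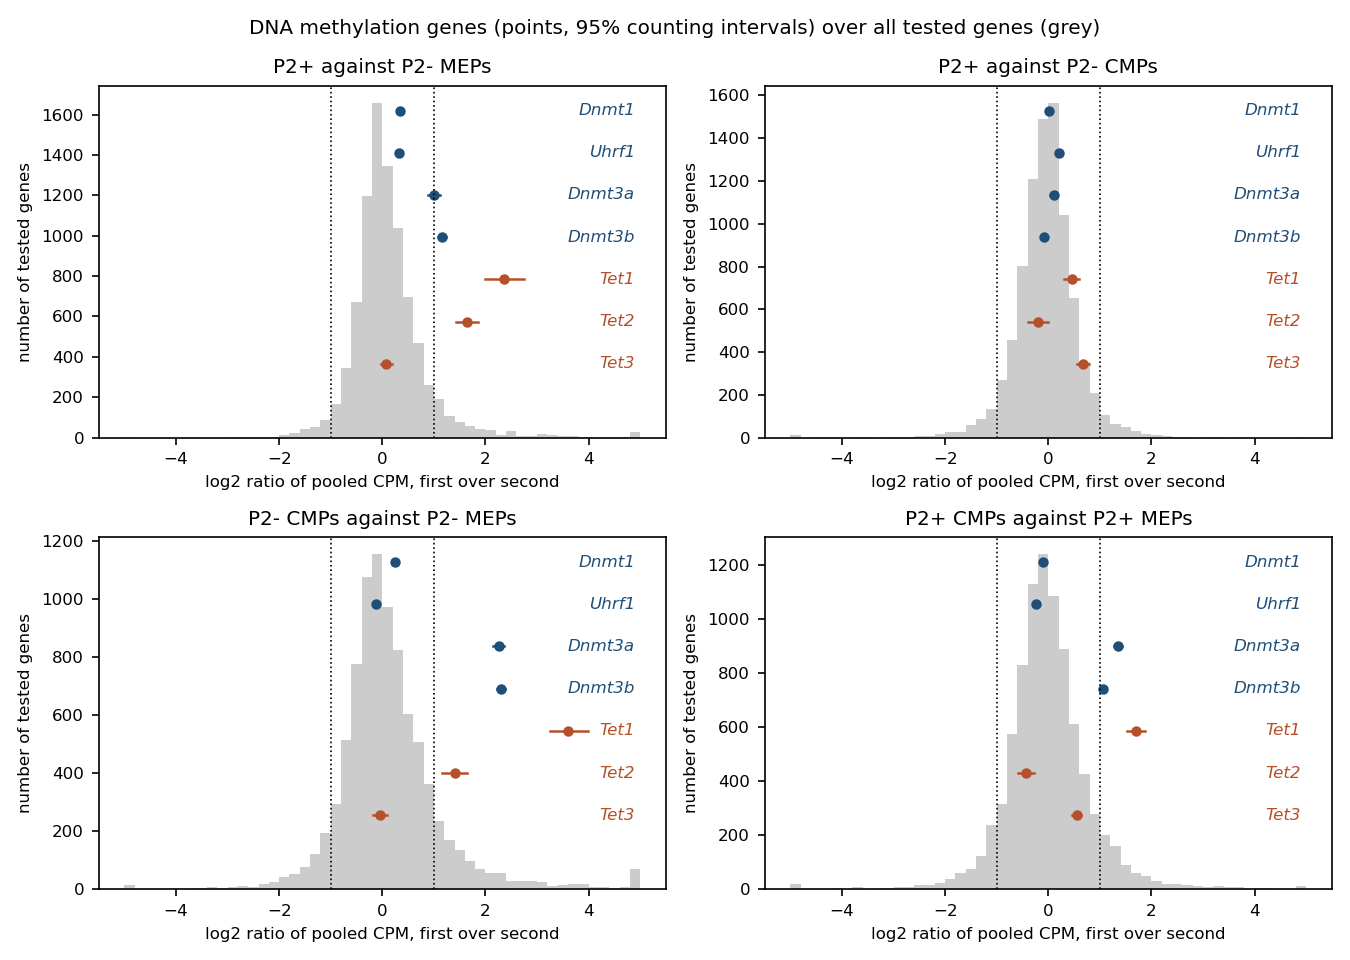
Log2 ratio of pooled CPM of the 7 genes (points, with 95% counting intervals) in each of the 4 comparisons, over the histogram of all 8741 tested genes (grey, values beyond the axis drawn at its ends), with dotted lines at 2-fold. Dnmt3a, Dnmt3b and Tet1 lie at or right of the upper line in 3 panels, none of the 7 does between P2+ and P2- CMPs, and Dnmt1 and Uhrf1 lie near 0 in all.

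Maintenance methylation is tied to replication, so the genes were related to cell cycle lists within each population, at equal depth. The G1/S list held 18 genes (such as Mcm2, Pcna and Ccne1) and the G2/M list 17 (such as Ccnb1, Plk1 and Top2a), and neither contained any of the 7. Spearman's rho over cells is given as a description, the cells sharing a pool. Uhrf1 followed the G1/S list in every population, with rho of 0.63, 0.40, 0.69 and 0.60 (56, 47, 27 and 42 cells), and ran against the G2/M list with -0.56, -0.54, -0.40 and -0.45. Dnmt1 did not share this pattern, with -0.23, 0.09, 0.23 and 0.14 for G1/S and 0.21, -0.07, -0.15 and 0.07 for G2/M. Between Dnmt1 and Uhrf1 themselves rho was 0.06, 0.07, 0.37 and 0.26. Tet2 tended to the G2/M list in CMPs (0.41 in P2- and 0.38 in P2+, with a read in 11 and 14 cells). It did not in MEPs (-0.01 in P2- and 0.06 in P2+, with a read in 12 and 15 cells). In P2- CMPs rho with G1/S and G2/M was -0.39 and 0.46 for Dnmt3b and -0.45 and 0.27 for Tet3. P2+ CMPs did not share this, with 0.10 and -0.24 for Dnmt3b and 0.14 and 0.06 for Tet3. For Dnmt3b the values were -0.01 and 0.04 in P2- MEPs and -0.18 and 0.22 in P2+ MEPs. Those of Tet3 were -0.03 and 0.10 in P2- MEPs and -0.16 and -0.06 in P2+ MEPs.

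**Figure D5:**
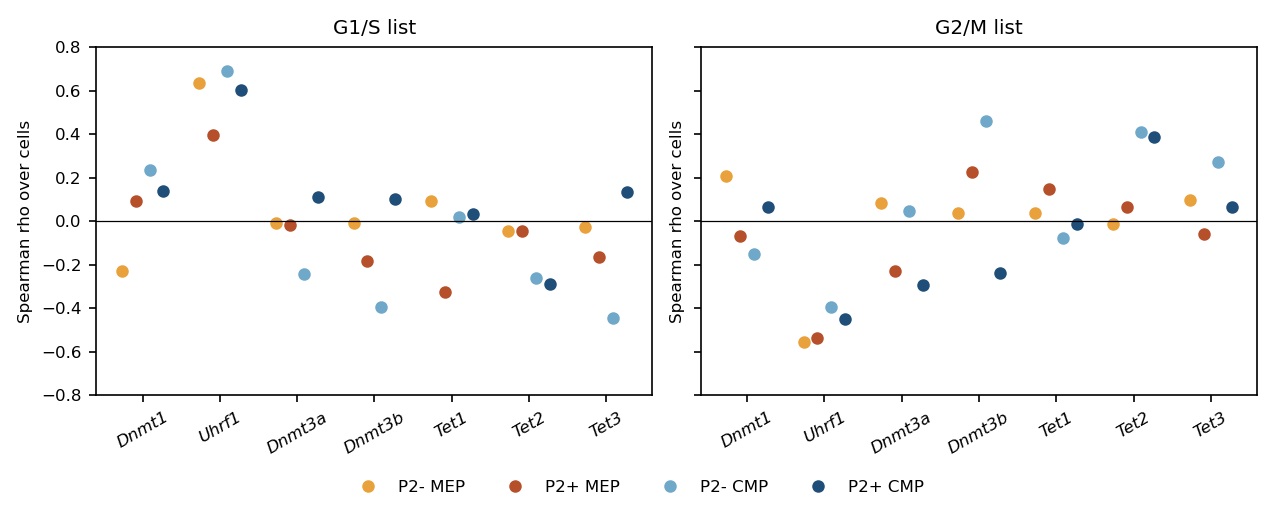
Spearman's rho over the cells of each population between each gene and the summed reads of the G1/S list (left) and of the G2/M list (right), at 100000 reads per cell. Uhrf1 lies between 0.40 and 0.69 for G1/S and between -0.56 and -0.40 for G2/M, and the other genes have values of either sign.

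Within populations the genes were also set against lineage markers, by sums chosen after the values were seen: Gata1, Klf1, Epor and Car1 for erythroid genes, and Cd34, Mpo, Spi1, Cebpa, Flt3 and Elane for myeloid ones, with no gene in both. In P2- CMPs Dnmt3b had rho of -0.71 with the summed erythroid markers and 0.47 with the myeloid ones over 27 cells, and Tet1 -0.57 and 0.36. Outside P2- CMPs Tet1 had rho of -0.25 to -0.04 with the erythroid sum and -0.14 to 0.15 with the myeloid one, and Tet2 had 0.31 and -0.32 in P2+ CMPs. In P2+ CMPs the values of Dnmt3b were -0.22 and 0.24, in P2- MEPs -0.06 and 0.16 and in P2+ MEPs -0.18 and 0.29. For Dnmt3a the values with the erythroid list lay between -0.25 and 0.01, and in P2- CMPs that with the myeloid list was -0.11. Dnmt3a and Dnmt3b themselves had rho of 0.06, 0.27, 0.24 and 0.09.

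Over all 172 cells at equal depth, where differences between populations enter, the genes most like each of the 7 were as follows. For Dnmt3b they were Coro1a (rho 0.65), an actin regulator of leukocytes, Ptprc (0.64), which encodes the leukocyte surface phosphatase CD45, and Cd93 (0.64), a surface protein of early progenitors. For Dnmt3a they were Coro1a (0.57), Bin2 (0.56) and Alox5ap (0.54), the activator of leukotriene synthesis. For Tet1 they were Lbp (0.53), Ifitm3 (0.52) and Adgrl4 (0.44). All of these were higher in CMPs than in MEPs, for example Coro1a at 18.8, 129, 683 and 908 CPM and Ptprc at 2.61, 23.3, 98.7 and 114. For Uhrf1 the nearest genes were those of DNA synthesis and its upkeep, Ung (0.42), the uracil glycosylase, Tk1 (0.41), thymidine kinase, and Hells (0.39), the chromatin remodeler that maintenance methylation needs. Dnmt1 (Mknk2, Bag6 and Ss18, 0.29 to 0.30), Tet2 (Cdk19, C330027C09Rik and Arhgap11a, 0.28 to 0.30) and Tet3 (Rab8a, Msantd4 and Ilvbl, 0.26 to 0.30) had no gene above 0.31.

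The wider pathway was followed with 81 genes in 8 lists, of which 60 passed the filter and 5 had no read (among them Dnmt3l, Wt1, Prdm14 and Neil2). Their median log2 ratios were -0.03, -0.01, 0.07 and 0.08 in the comparisons in the order above, and 0, 0, 6 and 5 genes were 2-fold higher and 1, 2, 3 and 4 lower. As a share of the 60 these are 0%, 0%, 10% and 8.33% higher and 1.67%, 3.33%, 5% and 6.67% lower, beside the shares of all genes given above. Of the 11 partners of maintenance methylation none reached 2-fold in any comparison, among them Hells, Cdca7, Pcna, Usp7, which deubiquitinates and stabilises DNMT1 and UHRF1, and Uhrf2. Of the 6 partners of de novo methylation that passed, none did either.

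Of the 10 genes that make 2-oxoglutarate or handle the metabolites that compete with it, 2 were at least 2-fold higher in CMPs in both fractions, Idh1 and Idh2, where 12.3% and 8.05% of all genes were. Of the 10, 2 were 2-fold lower in P2+ CMPs than in P2- CMPs, where 4.48% of all genes were. Between P2+ CMPs and P2+ MEPs 2 of the 10 were 2-fold lower in CMPs, where 7.38% of all genes were. Idh1 stood at 8.56, 13.7, 22.9 and 32.8 CPM and Idh2 at 148, 184, 347.4 and 468 CPM, and both encode isocitrate dehydrogenases that make 2-oxoglutarate outside and inside the mitochondrion. The CMP to MEP log2 ratios were 1.42 (1.19 to 1.64) and 1.27 (1.11 to 1.43) for Idh1 in the P2- and P2+ fractions and 1.23 (1.18 to 1.29) and 1.35 (1.31 to 1.39) for Idh2. The subunits of the other mitochondrial isocitrate dehydrogenase did not reach 2-fold, with -0.46 and 0.32 for Idh3a, 0.08 and -0.07 for Idh3b and 0.35 and 0.44 for Idh3g. D2hgdh, which clears the TET inhibitor 2-hydroxyglutarate, was lowest in P2+ CMPs, at 8.92, 12.1, 15.98 and 5.58 CPM. Between P2+ and P2- CMPs its log2 ratio was -1.52 (-1.78 to -1.25), and without the P2- CMP of highest level it was -0.81, no longer past 2-fold. Between P2+ CMPs and P2+ MEPs it was -1.12, and -0.66 without the P2+ MEP of highest level.

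Among TET partners, Cxxc5, a CXXC zinc finger protein that binds CpG-rich DNA, was far higher in CMPs, at 65.0 and 57.2 CPM against 5.46 and 8.55 in MEPs (log2 ratios 3.57, 3.34 to 3.82, and 2.74, 2.56 to 2.93, in the P2- and P2+ fractions). Of the glycosylases, Neil3 was higher in CMPs by 1.99 (1.82 to 2.16) and 1.49 (1.38 to 1.61), and Tdg, the glycosylase of oxidised methylcytosine, lay between 15.7 and 23.4 CPM in all populations. Gadd45g, a stress gene linked to demethylation, was lower in P2+ CMPs than in P2+ MEPs (-1.42, -1.64 to -1.20). Apobec3, a cytidine deaminase that restricts retroviruses, was higher there by 1.35 (1.26 to 1.44). Of the readers, the methyl-CpG binding protein gene Mbd2 was lower in CMPs (-1.01 and -1.71), and Mbd6 and Zbtb38 were higher in P2- CMPs than in P2- MEPs (1.10 and 1.17). Without the cell of highest level Mbd2 in the P2- fraction (-0.97), Mbd6 (0.87) and Zbtb38 (0.90) were no longer past 2-fold. In methyl donor supply, Mtrr, which reactivates methionine synthase, was highest in P2- MEPs, at 39.4 CPM against 14.5, 13.7 and 22.01 in the other populations, and the folate enzyme Mthfd1 was at 389 CPM in P2- MEPs and 180 in P2- CMPs (log2 ratio -1.11, -1.17 to -1.06).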

How the data were processed

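Single cells were made into full-length cDNA (Smart-Seq2, modified) beside ERCC spike-ins. The authors trimmed reads with Trimmomatic 0.36, aligned them with STAR 2.4.2a to GRCm38 and deposited raw counts per gene and cell, made with HTSeq 0.6.1p1 on GENCODE M12 exons without strand. Per the file headers, unmapped reads are a percent of reads per cell. Ambiguous reads (25.6% of uniquely mapped reads) and reads on no feature (7.40%) name no gene and were left out. Cells with under 250000 reads, over 25% unmapped or over 15% ERCC were removed (3). Reads were summed per population and divided by its mouse reads (CPM); 3 reads are worth 0.0825 to 0.164 CPM. Intervals (95%) were exact Poisson, conditional binomial and Clopper-Pearson. No hypothesis test was run, since each population is 1 sample. Shares and rho used cells thinned to 100000 reads. Merged exons were taken from GENCODE M21, a later release on the same build. The named genes are the 7, the pathway genes past 2-fold or without a read, and 3 nearest genes by rho. Some listed genes are not reported here. Members and lists were chosen with earlier results of these data known. The calculation of ratios and their intervals was checked on simulated pooled Poisson counts with known folds. That simulation had no variation between cells and no PCR copies, so it does not address the spread in these data. Alternatives are given in the closing section. Python 3.11.15, numpy 2.4.6, scipy 1.17.1 and DESeq2 1.42.0 (size factors only) were used.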

Additional observations from a re-analysis of the deposited data

Results flagged for a closer look

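In 2 pairs of comparisons, 2 genes each had opposite signs with both counting intervals away from 0. The differences between the comparisons were not tested, since each population is 1 sample, and the comparisons of a pair do not share a population. Dnmt3b was 1.16 log2 units higher in P2+ than in P2- MEPs and at -0.078 between P2+ and P2- CMPs, where DESeq2 size factors (0.03), ERCC reads (0.25) and leaving out the P2- CMP of highest level (0.04) turned the sign, so only the MEP value stands clear of 0. Tet2 was at 1.64 between P2+ and P2- MEPs and at -0.20 between P2+ and P2- CMPs, and the latter was 0.46 without the P2- CMP of highest Tet2 level. The same gene was at 1.41 between P2- CMPs and P2- MEPs and at -0.43 between P2+ CMPs and P2+ MEPs, and without that P2- CMP the former was 0.75. Dnmt1 was at 0.24 between P2- CMPs and P2- MEPs and at -0.10 between P2+ CMPs and P2+ MEPs, and relative to ERCC reads these were -0.27 and 0.33.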

How the results depend on the processing

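No paired analysis was possible because the numbers in the labels only name cells, and each population is 1 sample. Of the 11 log2 ratios past 2-fold, none changed sign in 9 alternatives each (99 values), and 92 of these values stayed past 2-fold. Those that did not were Dnmt3a (3) and Dnmt3b (1) between P2+ and P2- MEPs, Tet2 (2) between P2- CMPs and P2- MEPs and Dnmt3b (1) between P2+ CMPs and P2+ MEPs. Scaling to ERCC reads left 2 of the 7 genes past 2-fold between P2+ and P2- MEPs (Tet1 and Tet2) and gave 1 between P2+ and P2- CMPs (Tet3), as did a limit of 1.5-fold there (1, Tet3). Among all tested genes the ERCC scaling gave 1779 called between P2+ and P2- MEPs, and it turned the share of called genes that were higher from 73.7% to 15.7% in that comparison, from 43.4% to 78.8% between P2+ and P2- CMPs, from 64.7% to 24.7% between P2- CMPs and P2- MEPs and from 52.2% to 84.9% between P2+ CMPs and P2+ MEPs; it shifts every gene alike. In the same order of comparisons, with the mean count filter alone 2566, 2269, 3771 and 3242 genes were called, more genes being tested, and with no filter beyond 1 read 7349, 6862, 8176 and 8711. Leaving out each gene's highest cell left 424 called between P2+ and P2- CMPs. Shares of cells changed beyond their interval in 9 of 112 values, 5 of them with a minimum of 3 reads, and rho moved by over 0.1 in 7 of 112. Depth limits Tet1 in P2- MEPs most, at 71 reads.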
